A study of Mus musculus with 6 samples.

Results

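The 10 genes described here belong to the transforming growth factor β (TGF-β) pathway. They are the ligand gene Tgfb1, the latent binding protein genes Ltbp1, Ltbp3 and Ltbp4, the receptor genes Tgfbr1, Tgfbr2 and Tgfbr3, the signal transducer genes Smad3 and Smad7, and the corepressor gene Ski. They were chosen by name with the difference between Eomes-positive and Eomes-negative cells on these arrays already known, so their differences are a description. Whether each passed the fit over all genes is stated only as a count or status, and supports nothing. All 10 names were on the array, with 19 of its 39429 probes. The brightest probe of each of the 10 passed the filter on low signal, as did 16413 of 30342 gene names in all, but Ltbp1 passed through the Eomes-positive arrays alone.

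The cells were γδ T cells from the spleen of Eomes-IRES-GFP mice (allele Eomestm1.1Twa, C57BL6 background), in which green fluorescent protein (GFP) is made from the locus of the T-box factor Eomes. Both groups carried the reporter and came from the same sorts, and each was gated as CD3-positive, TCRγδ-positive and TCRβ-negative after depletion of cells bearing B220, CD4 or CD8β. The Eomes-positive group was GFP-positive and the Eomes-negative group GFP-negative, with 3 arrays each. Sorts 1, 2 and 3 pooled 4 to 6 mice of 9, 9.5 and 7.5 weeks, with 9, 9 and 4 ng of RNA per array, so no value belongs to a single animal. The signal at the 75th percentile was 1581 to 1684 intensity units in sorts 1 and 2 and 534.1 and 549.5 in sort 3, and 47.7% to 56.6% of probes were well above background. The CD3 chain genes Cd3d, Cd3e and Cd3g were well above background on all arrays, with differences of -0.06 to -0.07 on the log2 scale. The γδ constant chain names looked for were not among the gene names used here.

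TGF-β is secreted as a latent dimer, held by its own propeptide and often tethered to the extracellular matrix by a latent TGF-β binding protein (LTBP). Once released, it binds the type II receptor, which activates the type I receptor kinase, and that kinase phosphorylates Smad2 and Smad3, which enter the nucleus with Smad4. Smad7 and Ski act against this signal, at the receptor and on chromatin. In T cells the pathway is known for restraining proliferation and type 1 effector genes, for inducing the integrin CD103, and for its part in the programmes of regulatory and IL-17-producing cells.

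The Ltbp1 result rests on a pair of probes, and the first 30 of the 60 bases of each are shown, in lower case, because only one of them gave a signal above background. The first lies at chr17:75790530-75790589 (mm9, plus strand), from base 6132 of the transcript NM_019919. Per the file it is shared with NM_206958, another Ltbp1 transcript. The second lies 343.6 kb upstream, at chr17:75446945-75447004 on the same strand, and was designed on an oviduct cDNA (AK053964).
Ltbp1, transcript probe: ggaagtggaagagcttcatagagtttatta
Ltbp1, cDNA probe: tacgttggaccagaggctgcttcccaatac
Whether these probes lie in coding or untranslated sequence was not annotated in mm9 here. The probe of Tgfb1 and a second probe of Tgfbr2 lie in coding sequence and are shown whole, since they place the measurement on the mature ligand and at the end of the receptor. The capitals mark the stop codon that ends the Tgfbr2 reading frame.
Tgfb1, chr7:26489877-26489936 (mm9, plus strand): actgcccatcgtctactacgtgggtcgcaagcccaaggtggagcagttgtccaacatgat
Tgfbr2, chr9:115999496-115999555 (mm9, minus strand): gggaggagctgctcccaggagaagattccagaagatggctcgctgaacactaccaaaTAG

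RefSeq (GRCm38.p6) gives Ltbp1 a pair of start sites 173.3 kb apart, and the 250 bases before each are shown because the transcript probe cannot say which start was used. Capitals mark the short motif CAGAC or its reverse complement GTCTG, which Smad proteins can bind.
Ltbp1, upstream start, chr17:75005279-75005528 (plus strand): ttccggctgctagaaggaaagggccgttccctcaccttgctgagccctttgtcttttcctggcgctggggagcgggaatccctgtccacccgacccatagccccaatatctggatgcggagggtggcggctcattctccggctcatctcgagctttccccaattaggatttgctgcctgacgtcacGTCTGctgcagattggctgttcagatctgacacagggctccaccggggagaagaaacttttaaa
Ltbp1, downstream start, chr17:75178531-75178780 (plus strand): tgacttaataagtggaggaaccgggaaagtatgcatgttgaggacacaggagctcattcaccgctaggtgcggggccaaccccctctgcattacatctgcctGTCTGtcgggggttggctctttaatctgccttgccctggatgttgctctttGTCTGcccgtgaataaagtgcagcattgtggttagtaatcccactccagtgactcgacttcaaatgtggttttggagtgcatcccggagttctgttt
The upstream window held 1 such motif and the downstream window 2, while 42.2% of all 32851 RefSeq promoter windows of this length held at least 1. Promoter windows matched 8 of the 10 genes, with 12 windows in all, and 5 of the 12 held this motif. The T-box core GGTGTGA, on either strand, was in 0 of the 12 windows and in 3.33% of all windows. The Smad palindrome GTCTAGAC was in 0 of the 12 and in 0.167% of all. These letters are descriptions of the windows and not binding sites.

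Of the 10 genes, Ltbp1 was higher and Tgfbr3 lower in Eomes-positive cells by the widest margins, and both were among the genes that the limma fit over all genes called (adjusted p threshold 0.05), while the other 8 were not. Ltbp1 entered that fit through the Eomes-positive arrays, where it is high. The count is 2 of 10, beside 2.77% of all genes tested, and 1.2% of all genes were called higher and 1.57% lower. The median difference was -0.02 over the 10 genes and -0.01 over all genes tested. With the sort as a block, Ski passed too, as lower, giving 3 of 10 beside 7.98% of all genes (3.66% higher and 4.33% lower). Counted by probe, 2 of 13 tested probes of the 10 genes passed, beside 2.41% of all tested probes (1.04% higher and 1.38% lower). The groups did not overlap on the brightest probe of Tgfbr1, Tgfbr2, Tgfbr3, Ltbp1 and Smad3, beside 18.2% of all genes. Of these 5, Tgfbr1, Ltbp1 and Smad3 were higher in Eomes-positive cells, as 8.53% of all genes were without overlap, and Tgfbr2 and Tgfbr3 were lower, as 9.68% were. The direction was the same within all 3 sorts for 7 of the 10 genes (these 5, Tgfb1 and Ski), beside 52.4% of all genes. Since the genes were chosen on this contrast, nothing is read from these counts. A level is the log2 signal of a probe after subtraction of the 75th percentile for that array. A difference is the level in Eomes-positive cells less that in Eomes-negative cells, and a positive one means higher in Eomes-positive cells.

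**Figure D1:**
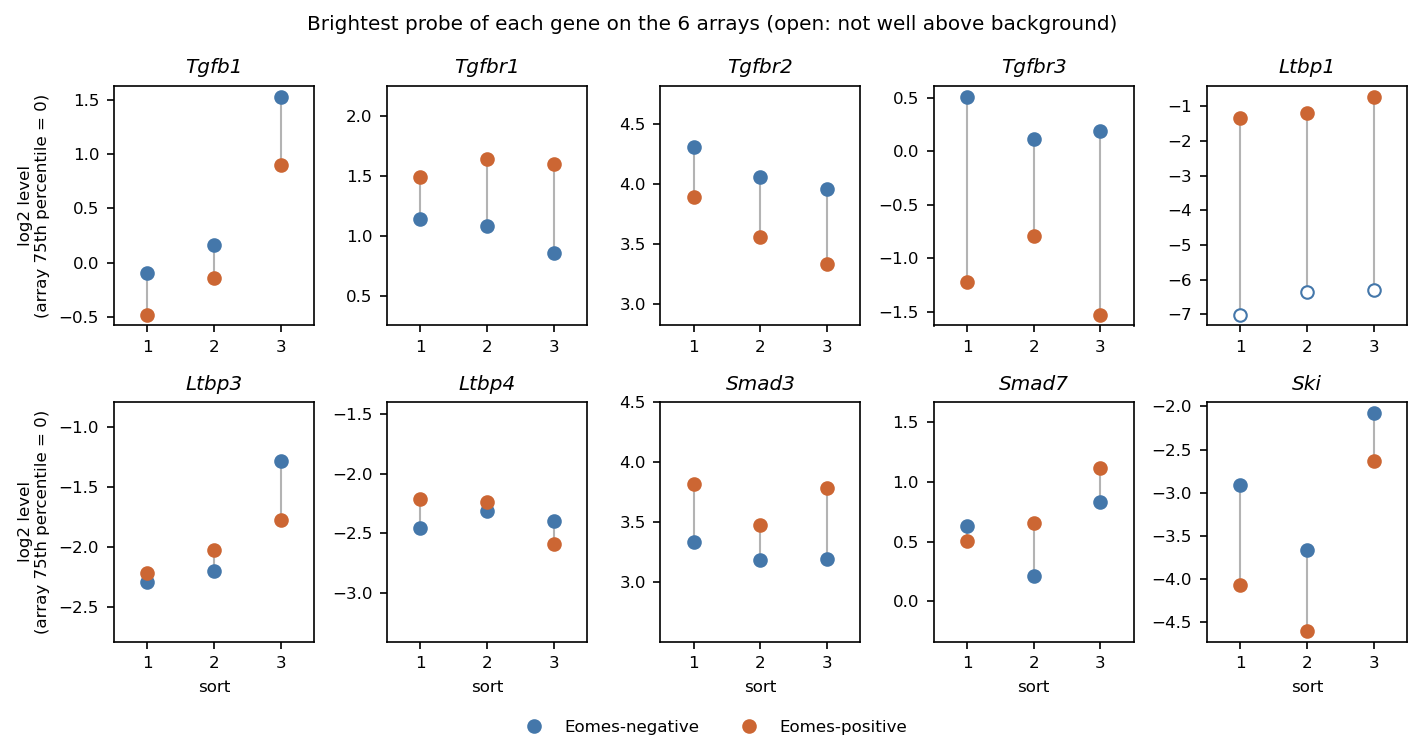
Log2 level of the brightest probe of each of the 10 genes (vertical axes, scaled per gene) by sort (horizontal axes), with Eomes-negative arrays in blue, Eomes-positive arrays in orange and a grey line joining arrays of a sort. Ltbp1 stands at -7.01 to -6.29 (open, not well above background) against -1.32 to -0.73, while Tgfb1 differs more between sorts than between groups.

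Tgfb1 encodes TGF-β1, the main isoform made by lymphocytes. It was well above background on all 6 arrays, at -0.10, 0.16 and 1.52 in Eomes-negative cells of sorts 1, 2 and 3 and at -0.48, -0.14 and 0.90 in Eomes-positive cells. The level was lower in the Eomes-positive array of each sort, but both arrays of sort 3 lay above all 4 arrays of sorts 1 and 2. The difference was -0.38, -0.31 and -0.63 within sorts 1, 2 and 3, with a mean of -0.44 (SE 0.55 without and 0.11 with sorts blocked). The SD over sorts was 0.87 in Eomes-negative and 0.72 in Eomes-positive cells. It holds the shift between sorts that both groups shared, and is not the spread of the within-sort differences. Without the Eomes-negative array of sort 3 the difference was 0.06, with groups that then no longer held matched sorts. Sort 3 also differed in RNA amount, age and slide, which cannot be told apart. Summed marker levels of the myeloid list were 77.1 and 79.5 times the 75th percentile in sort 3, below the 83.7 to 243 of the other sorts, and summed CD3 gene levels were 324 and 341 there against 254 to 269. Within each sort the myeloid sum was lower in the Eomes-positive array, as Tgfb1 was. It was 83.7 against 86.8, 159 against 243, and 77.1 against 79.5 in sorts 1, 2 and 3. Of its 13 tested genes, 5 differences were above 0 and 8 below, with a median of -1.09, and 0 were called. The part of the myeloid and CD3 lists in the Tgfb1 values was not tested.

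The latent binding proteins attach the latent TGF-β complex to fibrils of the matrix and take part in its secretion. Its transcript probe stood at -7.01, -6.36 and -6.29 in Eomes-negative cells and at -1.32, -1.20 and -0.73 in Eomes-positive cells. All 3 Eomes-positive arrays were well above background and none of the Eomes-negative arrays was, so the groups were far apart and the Eomes-negative level has only an upper bound. The within-sort differences were 5.68, 5.16 and 5.57. Each Eomes-negative array was set to its signal or to the dimmest signal classed as well above background, whichever was larger. Against this, the level in Eomes-positive cells was 31.0-fold higher, a log2 difference of 4.95, which is a bound for that floor and background correction only. The fitted difference was 5.47 (SE 0.27), with 5.36 from slide 1 alone and 5.57 from slide 3 alone. Slide 1 values, here and below, set the Eomes-positive array of sort 1 against the mean of the Eomes-negative arrays of sorts 1 and 2. They are therefore not matched by sort. It was 2.77 after another background correction (normexp) and 2.73 as a mean of both probes. Ltbp1 was no longer among the called genes without sort 1 or without sort 2, where 0 genes were called at all (1354 and 1267 genes at an unadjusted p under 0.05). In such bulk samples, more cells with the transcript and more transcript per cell cannot be told apart.

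The cDNA probe of Ltbp1 gave no signal well above background on any array. It stood at -5.86, -5.58 and -5.94 in Eomes-negative cells and at -5.49, -5.83 and -6.07 in Eomes-positive cells, with overlapping groups and a difference of -0.01. The difference in Ltbp1 was thus measured with the transcript probe alone.

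**Figure D2:**
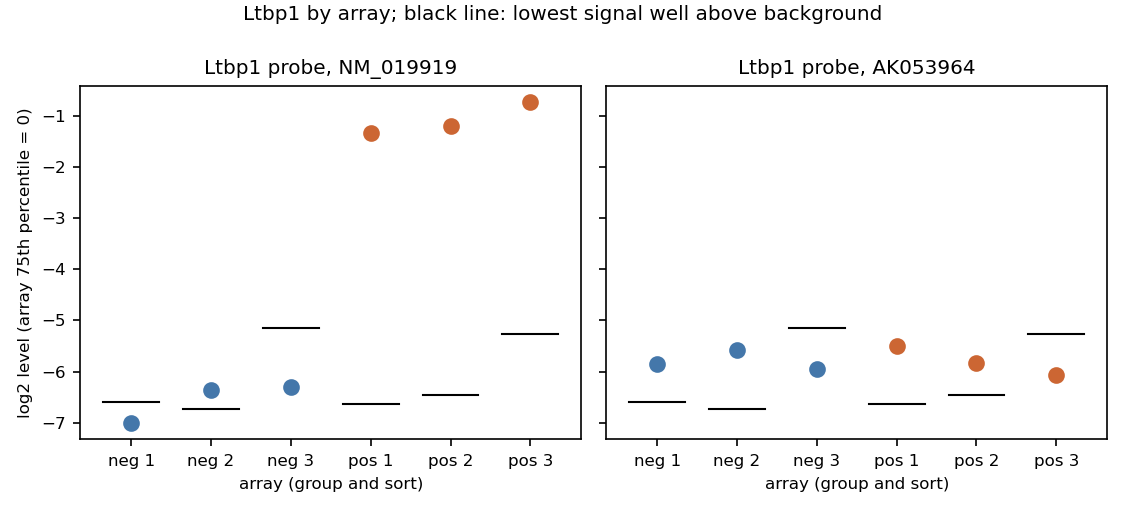
Log2 level of both Ltbp1 probes (vertical axis) on each of the 6 arrays (horizontal axis; blue Eomes-negative, orange Eomes-positive), with the dimmest signal classed as well above background on that array as a black line. The transcript probe (left) reaches -1.32 to -0.73 in Eomes-positive cells, and the cDNA probe (right) stays between -6.07 and -5.49 on all arrays.

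Ltbp1 expression is known from stromal cells and platelets. Among 10 markers of stromal cells, Lum, Pdgfra, Pdpn and Postn were well above background on 0 arrays and 4 genes on at least 3. Of these 4, Col1a2 was above background on 1 Eomes-negative and 3 Eomes-positive arrays, with overlapping groups and a difference of 0.76. The other differences were below 0 (Pdgfrb -0.82, Ccl19 -0.34 and Acta2 -0.01), and none of the 4 was called. The summed stromal list was at 0.593 to 1.1 times the 75th percentile in Eomes-negative and 0.487 to 1.04 in Eomes-positive arrays. Of 10 platelet markers, Gp1ba and Gp5 were above background on 0 arrays and 2 on at least 3, with sums of 0.155 to 0.713 and 0.146 to 0.873. The stromal and platelet sums overlapped between the groups, and the stromal sum was lower in the Eomes-positive array of each sort. The endothelial list, with Cdh5, Emcn, Tek and Tie1 above background on 0 arrays, summed to 2.19 to 3.34 in Eomes-negative and 1.7 to 2.15 in Eomes-positive arrays. The list of 8 NK cell and ILC1 markers, which holds Eomes itself, had all 8 well above background on at least 3 arrays. Its sums were 10.2 to 16.8 in Eomes-negative and 83.7 to 98.3 in Eomes-positive arrays. Of the 8, limma called 4 higher, namely Eomes (4.76), Klre1 (4.33), Tnfsf10 (1.77) and Klrb1c (1.66). Ncr1 (1.70) and Klra8 (1.64) were higher without overlap but not called, and Klrk1 (-0.23) and Itga2 (0.02) had groups that overlapped. The part of these stromal, platelet, endothelial and NK lists in the Ltbp1 difference was not tested. The B cell list (15.8 to 23.9 against 9.54 to 18.8), the neutrophil list (38.2 to 258 against 28.9 to 291) and the erythroid list (23.4 to 241 against 23.6 to 281) overlapped between the groups. Within each sort, however, the B cell sum was lower in the Eomes-positive array. Its Cd79b had groups without overlap and a difference of -0.92 (limma adjusted p = 0.0598, and 0.0217 with the sort as a block). Of its 6 tested genes, 3 differences were above 0 and 3 below. Their part was not tested either.

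The 5 genes whose 6 values followed those of the Ltbp1 transcript probe most closely were Endou, Mapk12, Mfsd10, Hic1 and Fndc4, with Pearson correlations of 0.9963 to 0.9974 over the 6 arrays. With 3 arrays high and 3 low, these values mostly describe the difference between groups. Mapk12 encodes a p38-family kinase and Hic1 a zinc finger repressor, and they differed by 4.65 and 2.33. Mfsd10 differed by 1.44, Endou by 3.18 and Fndc4 by 4.41, the last with no Eomes-negative array well above background.

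Ltbp3, a second LTBP gene that pairs with latent TGF-β, was well above background on all arrays with its brighter probe (chr19:5758082-5758141, plus strand). The levels were -2.30, -2.20 and -1.28 in Eomes-negative cells and -2.21, -2.02 and -1.78 in Eomes-positive cells. The groups overlapped, the Eomes-negative array of sort 3 was the highest of all 6, and the difference of -0.08 (SE 0.31) changed sign with median scaling (0.02) and without sort 3 (0.13). The other Ltbp3 probe, 4947 bases into the transcript, was above background on 1 array per group, with a difference of -0.04.

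Ltbp4, which encodes a matrix protein that binds latent TGF-β1 weakly, had 3 probes. The brightest (chr7:28090175-28090234, minus strand) stood at -2.45, -2.31 and -2.40 in Eomes-negative cells and at -2.21, -2.23 and -2.59 in Eomes-positive cells. These groups overlapped, with a difference of 0.04 (SE 0.16). A probe from base 4822 of the same transcript was higher on all 3 Eomes-positive arrays (-5.22, -5.60 and -5.55 against -6.59, -6.64 and -6.20), but it was not well above background on any array. The probe for a melanocyte cDNA (AK147753) was above background on 1 array per group and differed by 0.10. Of the LTBP genes on the array, Ltbp2, which does not bind latent TGF-β, was above background on 1 Eomes-negative array only and was not tested.

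The receptors showed smaller differences than Ltbp1. Tgfbr2 encodes the type II receptor kinase that binds the ligand, and its brightest probe (chr9:115997155-115997214, minus strand) stood at 4.31, 4.06 and 3.96 in Eomes-negative cells. In Eomes-positive cells it stood at 3.89, 3.56 and 3.33, below every Eomes-negative array. The within-sort differences were -0.41, -0.50 and -0.63, with a mean of -0.51 (SE 0.20), and it was -0.29 within slide 1. The coding probe shown above also had groups that did not overlap, at -1.26, -1.48 and -1.47 against -1.75, -1.97 and -2.36, with a difference of -0.62. Tgfbr2 was not called, with or without the sort as a block.

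Tgfbr1, the type I receptor kinase that phosphorylates Smad2 and Smad3, went the other way. The brightest of its 4 probes (chr4:47427736-47427795, plus strand) stood at 1.14, 1.08 and 0.86 in Eomes-negative cells and at 1.49, 1.64 and 1.60 in Eomes-positive cells. Every Eomes-positive array lay above every Eomes-negative one, with within-sort differences of 0.35, 0.56 and 0.74 and a mean of 0.55 (SE 0.14). A probe for a shorter Ensembl transcript (chr4:47395833-47395892) was also higher within each sort, by 0.39, 0.74 and 0.19, with groups that overlapped. The other 2 probes, 1 of them at base 2815 of the transcript that carries the brightest probe, were not well above background on any array, with differences of -0.10 and 0.12. Tgfbr1 was not called, with or without the sort as a block.

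Tgfbr3 encodes betaglycan, a coreceptor that presents TGF-β to the type II receptor. Its single probe (chr5:107535818-107535877, minus strand) stood at 0.51, 0.12 and 0.19 in Eomes-negative cells and at -1.22, -0.79 and -1.53 in Eomes-positive cells. The groups did not overlap, and the difference was -1.46 (SE 0.24), which is 2.74-fold lower. The within-sort differences were -1.73, -0.91 and -1.72, and the difference was -1.54 within slide 1. The call was lost with median scaling, with no filter on dim probes, against a minimum of 1.5-fold, without any 1 sort, and without any 1 array other than the Eomes-positive array of sort 2. The difference itself stayed between -1.73 and -1.28 when a sort or an array was left out.

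The αβ T cell marker list also differed between the groups, beside the difference in Tgfbr3. Its summed level was 6.37 to 9.24 in Eomes-negative and 2.31 to 2.55 in Eomes-positive arrays, over 5 of 9 names on the array, and Cd40lg was above background on 0 arrays. In this list Cd8b1, the CD8β chain, fell (-2.86), while Cd4 (-0.39), Foxp3 (-1.09) and Tcra, the αβ receptor α chain (0.18), had groups that overlapped and did not pass. The part of these markers in the Tgfbr3 difference was not tested.

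Smad3, the receptor-activated transducer, was higher in Eomes-positive cells with its brightest probe (chr9:63494574-63494633, minus strand) and was not called. This probe stood at 3.34, 3.18 and 3.19 in Eomes-negative cells and at 3.82, 3.48 and 3.78 in Eomes-positive cells, with groups that did not overlap and a difference of 0.46 (SE 0.16). The second Smad3 probe, from base 2112, was well above background on all 6 arrays and disagreed. It stood at -3.38, -3.98 and -3.50 against -2.83, -4.49 and -3.88, with overlapping groups, a difference of -0.11 and opposite signs between sorts.

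Smad7, the inhibitory Smad that TGF-β itself induces, stood at 0.63, 0.21 and 0.83 in Eomes-negative cells and at 0.51, 0.66 and 1.12 in Eomes-positive cells, with its probe on chromosome 18. The groups overlapped, the sign differed between sorts (-0.12, 0.44 and 0.29), and the mean difference was 0.20 (SE 0.24).

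Ski binds Smad complexes and represses their targets. Its probe (chr4:154528238-154528297, minus strand) stood at -2.91, -3.66 and -2.08 in Eomes-negative cells and at -4.06, -4.60 and -2.63 in Eomes-positive cells. It was lower in the Eomes-positive array of each sort, with differences of -1.15, -0.93 and -0.56, but the groups overlapped because sort 3 was highest in both. The mean difference of -0.88 had an SE of 0.63 without the sort as a block and of 0.15 with it, and Ski was called only with the block. The difference was -0.53 after normexp background correction. The SD over sorts was 0.79 in Eomes-negative and 1.01 in Eomes-positive cells.

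**Figure D3:**
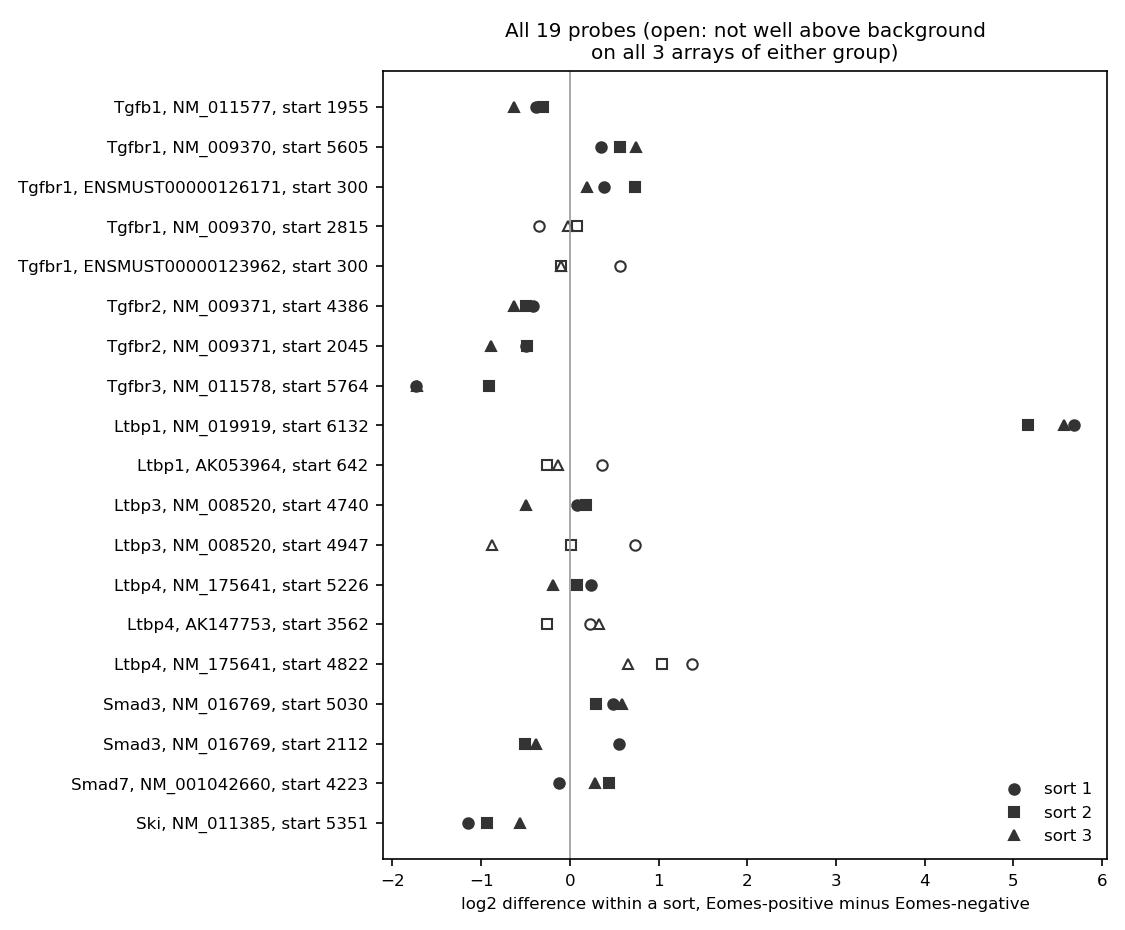
Log2 difference within each sort (horizontal axis, Eomes-positive minus Eomes-negative; circles, squares and triangles for sorts 1, 2 and 3) for all 19 probes (vertical axis; transcript and start base of the probe in it). The Ltbp1 transcript probe lies at 5.16 to 5.68, the Tgfbr3 probe at -1.73 to -0.91, and open symbols mark probes that were not well above background on all 3 arrays of either group.

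Other genes of the TGF-β superfamily were read from 7 lists by function, written from textbook roles. Of 119 names that are not among the 10 genes, all were on the array and 86 were tested, of which 1 rose and 4 fell (limma adjusted p under 0.05), with a median difference of -0.09. That is 5.81%, beside 2.77% of all genes tested. Bmpr1a, 1 of the 4 that fell, entered the fit through the Eomes-negative arrays alone. When sorts were blocked, 4 rose and 15 fell, beside 7.98% of all genes. The lists were written with earlier results of these data known, so nothing is read from their counts. Without sort 1 or without sort 2 limma called 0 of the 86 (13 and 17 at an unadjusted p under 0.05), and without sort 3 it called 1.

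**Figure D4:**
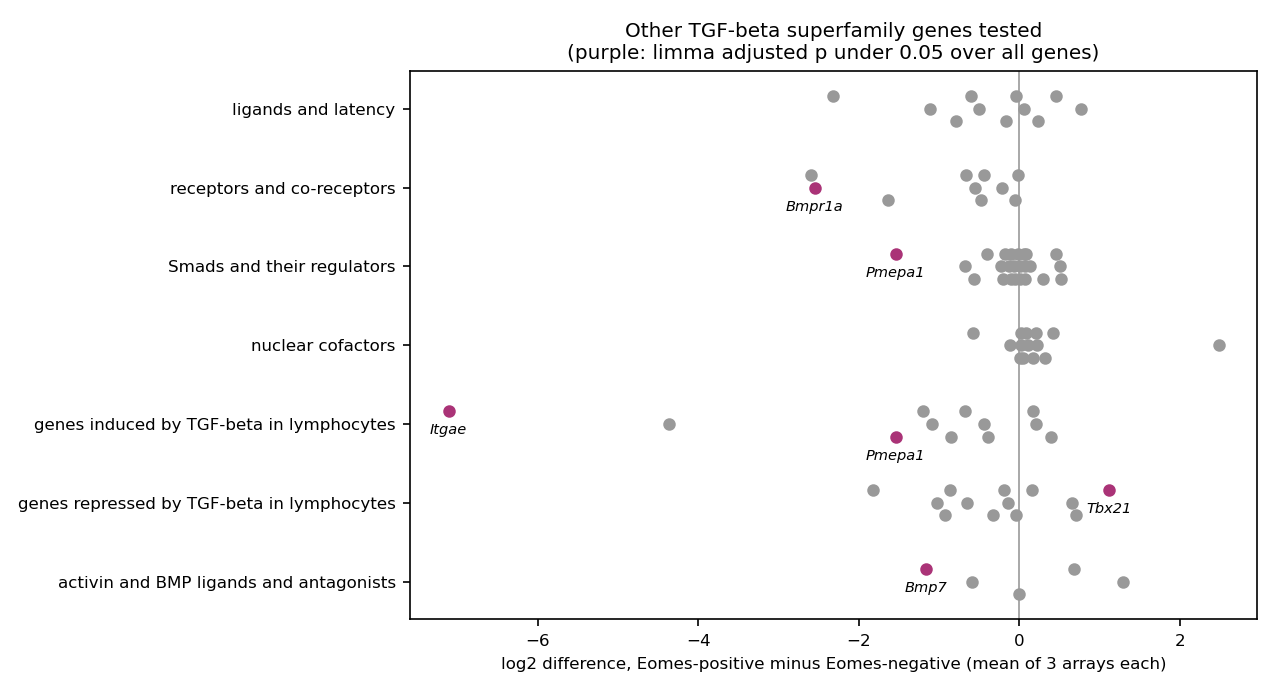
Log2 difference of each tested gene of the 7 functional lists (horizontal axis; points are spread vertically for visibility), with genes past the limma test in purple and named. Itgae lies at -7.11, Bmpr1a at -2.55, Pmepa1, a member of 2 lists, at -1.54, Bmp7 at -1.16 and Tbx21 at 1.12.

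Among genes of the ligands and their latency and activation, 0 of 11 tested rose or fell in limma (3 at an unadjusted p under 0.05), with a median difference of -0.17. When sorts were blocked, 1 rose and 2 fell, beside 3.66% and 4.33% of all genes. The ligand gene Tgfb2 was not well above background on any array. Tgfb3 stood at -0.45, -1.16 and -0.59 in Eomes-negative cells and at -1.68, -1.86 and -2.0 in Eomes-positive cells, with no overlap and a difference of -1.11 (SE 0.23). Limma gave it an adjusted p of 0.0842, and of 0.0400 with the sort as a block. Itgav, the integrin αV chain that activates latent TGF-β, and Itgb5, one of its partner chains, differed by 0.77 and -2.33, and passed only with the block (limma adjusted p = 0.0219 and 0.0164, against 0.464 and 0.442 without it). Itgb5 spread widely between sorts, from -0.60 to 1.59 in Eomes-negative and from -3.43 to -0.20 in Eomes-positive cells, with sort 2 highest in both. The summed myeloid list was also highest in sort 2, at 243 in Eomes-negative and 159 in Eomes-positive cells. Its part in the Itgb5 difference was not tested. Tgfb2, Tgfb3, Itgav, Itgb5, Lrrc32 and Ltbp2 were named after their values were seen. So were, below, Acvrl1, Nrp1, Smad6, Smad9, Skil, Zeb2, Gzmb, Il2, S1pr1, Ifng and Prf1. Nrros, which holds latent TGF-β on the surface of myeloid cells, differed by 0.46 (limma adjusted p = 0.735), and Itgb3 by -0.60 (0.233). Lrrc32, or GARP, which holds it on regulatory T cells, was above background on 2 Eomes-negative arrays and 1 Eomes-positive array.

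Among other receptors and coreceptors of the superfamily, limma called 1 of 10 tested lower and 0 higher, beside 1.57% and 1.2% of all genes. All 10 differences were below 0, with a median of -0.52, beside 8477 of 16413 below 0 over all genes. Bmpr1a, a type I receptor for bone morphogenetic proteins (BMPs), stood at -3.90, -3.08 and -2.95 in Eomes-negative cells. It was not well above background on any Eomes-positive array. Each of these arrays was set to its signal or to the dimmest signal classed as well above background, whichever was larger. On that scale Bmpr1a was 5.81-fold lower, a value that depends on this floor and on the background correction. The fitted difference was -2.55 (SE 0.44, limma adjusted p = 0.0466). Bmpr1a entered that fit through the Eomes-negative arrays alone, where it is high, so this p supports nothing. The call was lost with slide as a block (adjusted p = 0.0512), with normexp background correction (-1.07, 0.429), with no filter on dim probes (0.0897), against a minimum of 1.5-fold (0.121), without any 1 sort, and without any 1 array other than the Eomes-positive array of sort 3. Of the receptors that did not pass, Acvr1b, an activin type I receptor, differed by -0.06 (adjusted p = 0.992) and Eng, or endoglin, by -0.66 (0.176). With the block, Nrp1 and Acvrl1 fell as well, by 2.59 and 1.64 on the log2 scale (limma adjusted p = 0.0460 and 0.0351).

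Among the Smads and their regulators, limma called 1 of 24 lower and 0 higher (2 at an unadjusted p under 0.05). Over all genes these shares were 1.57% and 1.2%. The median was -0.04. Pmepa1, a TGF-β-induced membrane protein that holds back Smad2 and Smad3, stood at -0.39, -0.80 and -0.53 in Eomes-negative cells and at -1.98, -1.81 and -2.54 in Eomes-positive cells. It fell by 1.54 on the log2 scale (SE 0.24, limma adjusted p = 0.0362), and its second probe differed by -1.43. It did not pass with slide as a block (0.0638), with median scaling (0.0623), with no filter (0.0927), against the minimum fold (0.174), or without any 1 array or sort. Smad4, the partner of all receptor-activated Smads, differed by -0.06 (adjusted p = 0.980), and Fkbp1a, which holds the type I receptor inactive, by 0.08 (0.989). A dimmer Fkbp1a probe differed by -0.46. Smad6 and Smad9 were not well above background on any array.

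Among nuclear cofactors, 0 of 14 tested rose or fell in limma, also with the sort as a block (2 and 4 at an unadjusted p under 0.05), with a median of 0.09. Hdac1, a histone deacetylase recruited by corepressors, differed by 0.17 (adjusted p = 0.826) and Sp1 by 0.08 (0.968). Skil, the paralog of Ski, differed by 0.21 (adjusted p = 0.893). Of the 14 differences, 12 were above 0, beside 7936 of 16413 over all genes. Zeb2 had the largest, 2.48 with its brightest probe, which was well above background on all arrays, and was not called. Its dimmer probes were not well above background on any array and differed by 1.32 and -0.14.

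Of genes known to be induced by TGF-β in lymphocytes, limma called 2 of 12 lower and 0 higher, beside 1.57% and 1.2% of all genes. It called 4 lower when sorts were blocked, beside 4.33% of all genes. The median was -0.76, beside -0.01 over all genes tested. Itgae, the αE chain of the integrin CD103 that binds epithelial cadherin, stood at 1.38, 0.89 and 1.77 in Eomes-negative cells and at -6.44, -4.40 and -6.46 in Eomes-positive cells, where 1 array was well above background and the others give only an upper bound. The fitted difference, which depends on those dim signals, was -7.11 (SE 0.62, limma adjusted p = 0.00595), and -4.78 after normexp background correction, and it did not pass without any 1 sort (limma adjusted p = 0.0616 to 0.171). The other called member was Pmepa1, as given above. Klf10 differed by 0.17 (limma adjusted p = 0.946) and Nt5e, or CD73, by 0.39 (0.651), and neither passed.

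Of genes known to be repressed by TGF-β in lymphocytes, limma called 1 of 13 higher and 0 lower, beside 1.2% and 1.57% of all genes. The median was -0.19. Tbx21, which encodes T-bet, was higher by 1.12 (SE 0.19, limma adjusted p = 0.0447), from 2.18, 2.26 and 2.38 to 3.42, 3.09 and 3.66. It did not pass with median scaling (0.106), with no filter (0.148), with every probe tested (0.0509), against the minimum fold (0.467), or without any 1 array or sort. When sorts were blocked, 3 rose and 4 fell, beside 3.66% and 4.33% of all genes. Klf2, a factor of T cell quiescence and recirculation, was 1 of the 4, with a difference of -0.65 (limma adjusted p = 0.0322 blocked, 0.759 unblocked). Gzmb (-1.03), S1pr1 (-0.87) and Il2 (-1.82) fell as well. Il2 was above background on 2 Eomes-negative arrays and 1 Eomes-positive array. Ifng (0.70) and Prf1 (0.65) rose beside Tbx21, and of all these only Tbx21 passed without the block. Gzma, a granzyme gene, differed by -0.14 (limma adjusted p = 0.992 unblocked).

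Of activin and BMP ligands and their antagonists, 5 of 16 were tested, and 1 fell and 0 rose, beside 1.57% and 1.2% of all genes. Bmp7, a BMP ligand, stood at 0.04, 0.21 and 0.37 in Eomes-negative cells and at -0.74, -1.14 and -0.98 in Eomes-positive cells. It fell by 1.16 on the log2 scale (SE 0.17, limma adjusted p = 0.0313). It did not pass with slide as a block (0.0880), with median scaling (0.130), with no filter (0.110), against the minimum fold (0.288), or without any 1 array or sort. Lefty1, an antagonist of Nodal, differed by 0.68 (0.668) and Chrd, or chordin, by -0.01 (0.997).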

How the data were processed

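Total RNA from sorted γδ T cells was amplified once and hybridized to one-colour Agilent arrays of 39429 probes with 4 spots each. The deposited scanner intensities came from Agilent Feature Extraction 10.7.3.1, with spatial and multiplicative detrending on, per the file headers. Other columns hold flags for background, saturation and outliers. The authors also deposited scaled intensity values, used as an alternative. Their 75th percentiles were 1497 to 1506, and how they were scaled is not given in the sources used here. Spots without an outlier flag were averaged as log2 intensity for each probe, and each array was centred on its own 75th percentile. A probe counted as measured if 50% or more of its spots on an array were flagged well above background. Names came from RefSeq accessions for 27508 probes (2017 renamed, none of them a probe of the 10 genes). Each gene was read from its brightest probe over the 6 arrays, and genes measured on at least 3 arrays were tested with limma 3.58.1 in R 4.3.3 with group only and Benjamini-Hochberg adjustment at 0.05, after a check on simulated data. Figures used Python 3.11.15, pandas 2.3.3 and matplotlib 3.10.9. The number of arrays limits the precision.

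The replicate numbers mark shared sorts, per the series text and the shared ages and RNA amounts. Deviations from group means of same-numbered arrays correlated at 0.808 to 0.818, and of others at -0.569 to -0.26. Deviations within a group sum to 0, so the negative values follow from the positive ones and add nothing to them. Slides held 3, 1 and 2 arrays, and slide 3 is sort 3. The genes and lists were chosen with earlier results of these data known. Named are the 10 genes with all their probes, the called genes of each list, and up to 2 uncalled genes per list with the highest signal, and the report marks those named outside this rule. Alternatives were a sort block, a slide block, normexp (offset 50), quantile and median scaling, the authors' table, other filters and probe rules, a 1.5-fold minimum, and omission of each array or sort. Separate cultures or animals within a sort were not measured, so p-values rest on the spread between pooled sorts.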

Additional observations from a re-analysis of the deposited data

How the results depend on the processing

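Over all genes tested, 454 were called, against 1310 with the sort as a replicate block, 246 with no filter on dim probes and 204 against a minimum of 1.5-fold. Of the 10 genes, 2 were called, against 1 with median scaling, 1 when measured on all 6 arrays, 1 with no filter and 1 against the minimum fold. Of the other pathway genes, 5 were called, against 19 with the replicate block, 3 with slide as a block, 2 with median scaling, 3 when measured on all 6 arrays, 1 with no filter and 1 against the minimum fold. Requiring all 6 arrays removes Ltbp1, Itgae and Bmpr1a by construction, and for the other settings the cause was not tested. When 1 array or 1 sort was left out, the counts were 0 to 258, 0 to 2 and 0 to 3, with fewer samples in each fit. Among the 10 genes, the block changed the call of Ski alone. The difference of Ltbp3 was 0.021 with median scaling. With 1 array or sort left out, it ran from -0.26 to 0.24 for Ltbp3, from -0.84 to 0.061 for Tgfb1 and from -0.058 to 0.16 for Ltbp4. Signal near background limits Ltbp1, Bmpr1a and Itgae, whose fitted differences depend on the background correction.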
